A study of Homo sapiens with 6 samples.

Results

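Panc-1, an established human cell line of pancreatic ductal adenocarcinoma, was treated for 24 h with either of 2 inhibitors of retinoic acid receptor γ (RARγ), and the RNA of the RARγi-2 culture was set directly against that of the RARγi-1 culture. RARγi-1 is LY2955303 and RARγi-2 is MM11253, which the study describes as compounds of different structure. There was 1 library for each treatment, so every difference below compares 2 libraries, has no replicate check, no interval and no p-value. The members of the comparison are the 13808 of 53826 listed entries that were above 1 TPM with at least 1 of the inhibitors; 12975 of them were above it with both, 592 only with RARγi-1 and 241 only with RARγi-2. The other 40018 entries stood at 1 TPM with both inhibitors, since the deposited values raise everything lower to this floor. The lowest member reached only 1.0001 TPM in its higher library, and 1264 members stayed under 2 TPM in both.

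The study sequenced 6 libraries, namely a Control, a RARγi-1 and a RARγi-2 library of Panc-1 and the same set of PK-1, a further pancreatic ductal adenocarcinoma line. All were unmodified lines, and the labels of the Control libraries say no more than that. The labels conflict: the titles name RARγi-2 where the treatment field of the same libraries gives the other inhibitor, and the titles were followed. Neither the doses used for RNA-seq nor the vehicle are stated. The study's other assays used the inhibitors at different doses, so the libraries cannot be taken as matched for dose, and a dose effect cannot be told apart from a difference between the compounds. TPM, the share of each transcript scaled to one total, keeps no sequencing depth. Between 13149 and 13652 entries per library were above the floor. Fewer cells of a type and less RNA per cell cannot be told apart in such bulk samples.

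Retinoic acid receptors are nuclear receptors that bind DNA together with a retinoid X receptor (RXR) and switch target genes when retinoic acid binds, and an inhibitor competes for the retinoid pocket. Cells under proteotoxic stress turn on the unfolded protein response, in which sensors of the endoplasmic reticulum (ER) raise chaperones and degradation factors for misfolded proteins. Separate programs serve the cytosol, where heat shock factor raises the HSP70 chaperones, and metal homeostasis, where the zinc sensor MTF1 raises metallothioneins. Pancreatic cancer cells also make integrins, proteases and matrix proteins with which they attach and invade.

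Panc-1 cells with RARγi-2 had higher RNA for ER chaperones and ER degradation factors, metallothioneins and inducible HSP70 genes than cells with RARγi-1, and lower RNA for a list of integrins, collagens and laminins. Differences are given as log2 of (TPM + 1) with RARγi-2 over (TPM + 1) with RARγi-1, and an entry is called higher or lower where it is past 2-fold. By this rule 100 entries (0.724% of all members) were higher and 295 (2.14%) were lower with RARγi-2, and past 4-fold there were 10 higher and 7 lower. Of the entries called, 12 of the higher ones were at the floor with RARγi-1 and 21 of the lower ones were at the floor with RARγi-2, so that their values are lower limits of the change. The median difference of all members was -0.12, 65.3% of them lay below 0, and the 5th and 95th percentiles were -0.78 and 0.47. When the libraries were rescaled so that the median ratio of well expressed genes was 1 (the ratio was 0.936), the calls became 121 higher and 214 lower, which moved the higher share of the calls from 25.3% to 36.1%. The robust standard deviation of the difference over all members, 0.31, serves below as a yardstick of the spread between these 2 libraries; it holds real differences and noise together.

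**Figure D1:**
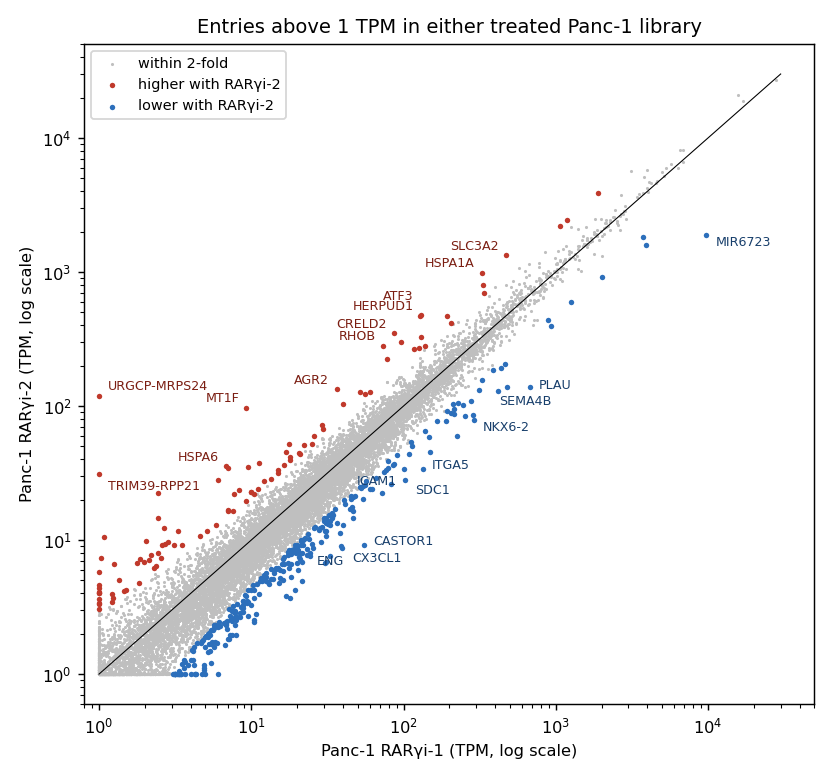
Level of each member in the RARγi-1 (horizontal) and RARγi-2 (vertical) libraries of Panc-1, in TPM on log axes; points on an axis edge of 1 are at the floor, and the line marks equal levels. Red points are the 100 entries higher and blue points the 295 entries lower by over 2-fold on the log2 (TPM + 1) scale; HERPUD1, ATF3 and MT1F stand above the line and PLAU, ITGA5 and CASTOR1 below it.

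Genes of ER folding and degradation were higher with RARγi-2. HERPUD1, a membrane protein of ER-associated degradation, stood at 31.1 TPM in the Control library and at 131 and 477 TPM with RARγi-1 and RARγi-2, a difference of 1.86 between the inhibitors. CRELD2, a secreted ER stress protein, stood at 66.8, 86.5 and 348 TPM in the same order, a difference of 1.99. SDF2L1, a partner of the ER chaperone BiP, stood at 112, 192 and 473 TPM, a difference of 1.30. All of these genes were lowest in the Control library and highest with RARγi-2. For CRELD2 the step from Control to RARγi-1 was much smaller than the step from RARγi-1 to RARγi-2, whereas HERPUD1 already lay well above its Control level with RARγi-1.

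HSPA5, which encodes BiP itself, had the highest level of the list with both inhibitors, with 434 TPM in the Control library and 3123 and 5661 TPM with RARγi-1 and RARγi-2; its difference of 0.86 did not reach 2-fold. MANF, a secreted protein retained in the ER, differed by 1.06 (336 and 701 TPM) and HSP90B1, the ER member of the HSP90 family, by 1.05 (1186 and 2449 TPM). Of the 24 ER chaperones and folding enzymes, all above the floor, 4 were called higher and 0 lower, and 21 were above 0 before rescaling and all 24 after it. Their median difference was 0.75 against -0.12 for all members, and the median level of the members was 138 TPM in the Control library and 228 and 456 TPM with RARγi-1 and RARγi-2. The members with no difference were ERO1A (53 and 52.4 TPM), an oxidase that recharges disulfide isomerases, CREB3L2 (24.0 and 23.8 TPM), a membrane-bound transcription factor, and FKBP7, which lay near the floor.

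The same direction held in the degradation and transport branches. Of 18 genes of ER-associated degradation above the floor, 4 were called higher and 0 lower, with a median of 0.46. Besides HERPUD1 these were DERL3 (1.03 and 7.29 TPM with RARγi-1 and RARγi-2), SELENOK (51.9 and 126 TPM) and SYVN1, the ubiquitin ligase of the pathway (117 and 268 TPM). EDEM1, a lectin that hands over misfolded glycoproteins, was the exception, at 31.4 and 29.6 TPM with RARγi-1 and RARγi-2. The 38 genes of ER translocation, N-glycosylation and vesicle coats had the same median of 0.46, with 2 higher and 0 lower. These were KDELR3, a receptor that returns ER proteins (29.8 and 67.0 TPM), and SRPRB, a subunit of the signal recognition particle receptor (127 and 270 TPM). After rescaling, every member of both lists lay above 0.

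The promoters of the ER folding genes are shown because this list had a high median difference and a known shared promoter element. The ER stress response element (ERSE) is known to be read by the unfolded protein response factor ATF6 together with NF-Y. It was searched as CCAAT followed by CCACG with 9 bases between them, on either strand. It was looked for in RefSeq promoters of GRCh38.p14, from 250 bases before to 50 bases after the start site. It was found in 25 of 27305 genes with a promoter (0.0916%), in 16 of the 10708 measured genes (0.149%) and in 7 of the 22 ER folding genes with a promoter (31.8%). It was in 2 of 64 higher genes and in 1 of 201 lower genes with a promoter, and in none of 14 ER degradation genes. The stretches below run 5′ to 3′ along the gene, with the element in capitals; some genes carry it on the opposite strand. The stretches are chr22:49918534-49918592 on the plus strand for CRELD2, chr12:103930196-103930359 on the plus strand for HSP90B1, chr9:125241371-125241429 on the minus strand for HSPA5, chr19:12938364-12938422 on the plus strand for CALR and chr2:10812833-10812891 on the minus strand for PDIA6.
CRELD2: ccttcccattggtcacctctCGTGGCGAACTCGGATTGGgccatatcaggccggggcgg
HSP90B1: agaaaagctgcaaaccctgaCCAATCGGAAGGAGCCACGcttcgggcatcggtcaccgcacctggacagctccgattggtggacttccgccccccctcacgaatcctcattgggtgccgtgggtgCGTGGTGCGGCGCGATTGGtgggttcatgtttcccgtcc
HSPA5: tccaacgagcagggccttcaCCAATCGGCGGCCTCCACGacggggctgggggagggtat
CALR: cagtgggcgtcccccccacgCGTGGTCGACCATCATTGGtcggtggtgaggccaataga
PDIA6: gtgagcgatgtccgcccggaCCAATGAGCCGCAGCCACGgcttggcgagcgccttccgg
HSP90B1 has 2 copies of the element and the others 1. The differences of these genes ran from 1.99 for CRELD2 through 1.05 for HSP90B1, 0.86 for HSPA5 and 0.78 for CALR (calreticulin, 1266 and 2175 TPM) to 0.35 for PDIA6, a disulfide isomerase (400 and 511 TPM). ERO1B (0.70) and CANX, the lectin chaperone calnexin (0.38), are the other members with the element. A match describes these letters only and does not show that a factor was bound.

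Genes driven by ATF4 and CHOP, the transcription factors of the integrated stress response, were divided. ATF3, a stress-induced repressor, stood at 5.38 TPM in the Control library and at 129 and 469 TPM with RARγi-1 and RARγi-2, a difference of 1.85. SLC3A2, the heavy chain of amino acid transporters, stood at 153, 469 and 1340 TPM, a difference of 1.51. DDIT3, which encodes CHOP, stood at 80.8, 575 and 1070 TPM and differed by 0.89, under 2-fold. The transcripts of ATF4 (618 and 821 TPM with the inhibitors) and XBP1 (219 and 259 TPM) differed by 0.41 and 0.25. Of the 34 ATF4 and CHOP target genes above the floor only ATF3 and SLC3A2 were called higher, 0 were lower, and the median was 0.25. The 20 aminoacyl-tRNA synthetases, many of which are ATF4 targets, had a median of 0.01 with 0 called, and their largest difference was 0.36 for WARS (342 and 440 TPM).

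Metallothioneins, small proteins that bind zinc and copper, had the highest list median, 0.998, but did not follow one order across the 3 libraries. MT1F stood at 3.47 TPM in the Control library and at 9.30 and 96.9 TPM with RARγi-1 and RARγi-2, a difference of 3.25 and the largest of any protein-coding gene that is not a read-through entry. SLC30A1, the zinc exporter of the cell surface and a classical zinc-response gene, stood at 7.4, 11.3 and 37.7 TPM, a difference of 1.65. These genes were highest with RARγi-2. MT1M (20.6, 7.08 and 34.5 TPM), MT1E (298, 131 and 328 TPM) and MT2A (3360, 1068 and 2192 TPM) were instead lower with RARγi-1 than in the Control library. With RARγi-2, MT1M and MT1E lay above the Control level and MT2A below it. Of the 11 list members above the floor, 5 were called higher and 0 lower, and the sum of the list was 4642 TPM in the Control library and 1618 and 3280 TPM with RARγi-1 and RARγi-2. MT1A (19.6 and 17.5 TPM) did not share the difference. The metallothionein genes lie side by side on chromosome 16 and are near-identical in sequence, so the split of reads among them is uncertain.

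The metal response element, the site of MTF1, was searched as TGCACNC or TGCGCNC on either strand in the same promoters. At least 1 match is common (33.4% of genes with a promoter). Promoters with 3 or more made up 2.78% of all genes with a promoter and 4.26% of measured genes. They were found in 5 of the 9 metallothionein and zinc genes with a promoter. The promoters of MT2A (chr16:56608334-56608583, plus strand, 7 matches) and MT1X (chr16:56682310-56682433, plus strand, 4 matches) are given as the abundant members, with the matches in capitals.
MT2A: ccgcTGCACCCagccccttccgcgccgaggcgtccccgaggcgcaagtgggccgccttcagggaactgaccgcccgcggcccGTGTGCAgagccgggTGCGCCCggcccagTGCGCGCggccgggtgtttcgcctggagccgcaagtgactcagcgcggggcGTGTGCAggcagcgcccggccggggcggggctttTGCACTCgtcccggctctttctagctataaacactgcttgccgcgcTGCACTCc
MT1X: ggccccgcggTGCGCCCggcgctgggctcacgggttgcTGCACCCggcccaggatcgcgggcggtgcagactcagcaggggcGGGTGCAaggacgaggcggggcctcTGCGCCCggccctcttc
MT1X stood at 193 and 333 TPM with RARγi-1 and RARγi-2, a difference of 0.79, and MT2A differed by 1.04. Matches as such were no more frequent in the 201 lower genes with a promoter (43.3%) than in measured genes at large (45.5%). In the 64 higher genes they were less frequent, in 19 of 64 (29.7%), and 2 of these 64 had 3 or more.

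Among cytosolic heat shock genes the difference was concentrated in the inducible HSP70 genes. HSPA6, an HSP70 gene nearly silent without stress, stood at 3.18 TPM in the Control library and at 6.82 and 35.6 TPM with RARγi-1 and RARγi-2, a difference of 2.23. HSPA1A stood at 307, 328 and 984 TPM and HSPA1B at 71.4, 78.4 and 222 TPM, differences of 1.58 and 1.49. In both HSPA1 genes the RARγi-1 level lay close to the Control level. They encode the same protein and their transcripts are near-identical, so that their separate values are uncertain. BAG3, a co-chaperone, differed by 0.83 (175 and 312 TPM). The constitutive chaperones differed less: HSP90AB1 by 0.35, HSPD1 by 0.20 and HSPB1 by 0.10. Over the 23 genes above the floor 3 were higher and 0 lower, and the median was 0.34.

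**Figure D2:**
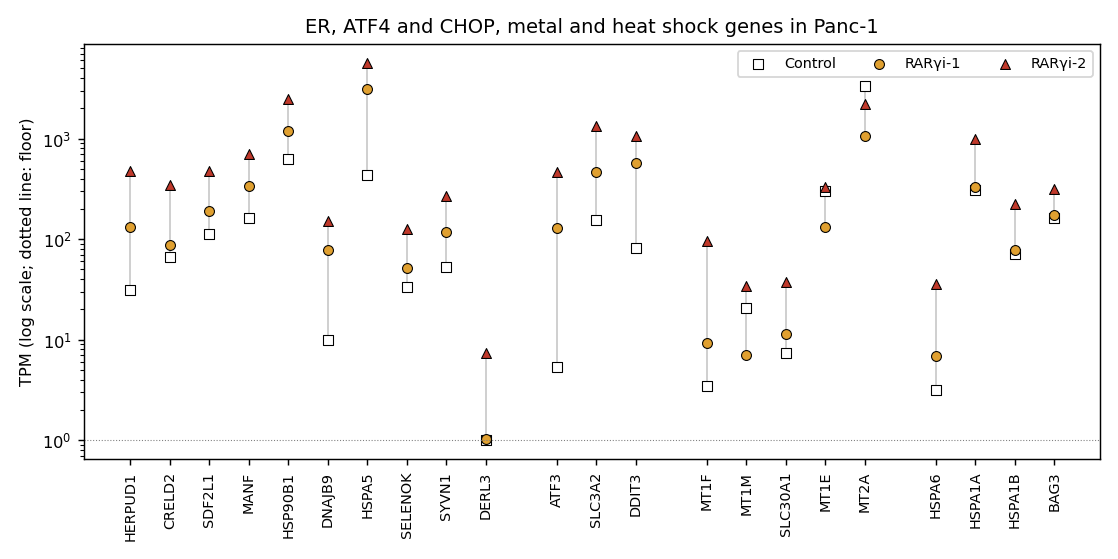
Levels of 22 genes in the 3 Panc-1 libraries, in TPM on a log axis, with 1 library per symbol; the dotted line is the floor of 1 TPM. The groups from left to right are ER folding and degradation, ATF4 and CHOP, metal response and heat shock. RARγi-2 (triangles) lies above RARγi-1 (circles) in every gene shown, while the Control (squares) lies under both except in MT1M, MT1E and MT2A.

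Oxidative stress genes differed in few members. OSGIN1, a growth inhibitor induced by NRF2, stood at 12.3 TPM in the Control library and at 96.2 and 299.6 TPM with RARγi-1 and RARγi-2, a difference of 1.63, and it was 1 of 2 genes called higher among the 27 NRF2 targets above the floor. The other, AKR1C1, was near the floor (1.21 and 3.95 TPM) and shares reads with its paralogs. HMOX1, the heme-degrading enzyme, was very high with both inhibitors, at 6518 and 8126 TPM against 113 TPM in the Control library, and differed by only 0.32. FTL, the ferritin light chain, differed by 0.41 (15681 and 20896 TPM). The median of the NRF2 list was 0.26. Among autophagy genes GABARAPL1, an ATG8-family protein of the autophagosome, was called higher (10.9, 39.9 and 104 TPM; 1.36), while MAP1LC3B (0.70) and WIPI1 (0.91) stayed within 2-fold and the list median was 0.14.

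A few further single genes led the higher entries. RHOB, a small GTPase of endosomes and actin, stood at 34.5, 73.1 and 281 TPM, a difference of 1.93. KLF2, a zinc-finger transcription factor best known in endothelium and lymphocytes, stood at 2.90, 6.09 and 28.1 TPM, a difference of 2.04. TNFRSF6B, a decoy receptor for Fas ligand, stood at 6.67, 2.43 and 14.6 TPM (2.18), and C11orf96 at 1, 2.44 and 22.3 TPM (2.76). AGR2, a disulfide isomerase of mucus-making cells, took a different course: 208 TPM in the Control library and 36.4 and 134 TPM with RARγi-1 and RARγi-2, a difference of 1.85 in which RARγi-2 stayed under the Control. LCN2, a siderophore-binding secreted protein, stood at 1, 18.1 and 39.8 TPM and S100P, a calcium-binding protein of pancreatic cancer, at 1.75, 20.7 and 44.3 TPM. With AGR2 these made 3 higher and 0 lower among the 6 measured genes of the mucin and CEACAM list. None of these 3 is itself a mucin or CEACAM gene. Of the 19 genes listed, 13 never exceeded 1 TPM in Panc-1, with or without an inhibitor. KRT16, a stress keratin of squamous epithelium, stood at 1, 2.65 and 12.4 TPM (1.87), and was the only keratin called of 8 measured. Of 23 measured genes in the list of replacement histones, 5 were higher and 0 lower. Among the 5 were HIST1H2BD (17.7 and 52.0 TPM) and HIST1H1C (26.0 and 59.4 TPM), which are genes of the HIST1 cluster and not replacement variants. In PK-1, 0 of 22 genes of the list were higher and 0 lower. Histone genes of a class are near-identical, so their separate values are uncertain.

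The 15 lower entries with the largest differences belonged to no single group. SEMA4B and SDC1, also described here, are not among these 15 and were chosen after their values were seen. CASTOR1, an arginine sensor of the mTORC1 pathway, stood at 15.7 TPM in the Control library and at 55.3 and 9.16 TPM with RARγi-1 and RARγi-2, a difference of -2.47. RGS2, a regulator of G protein signalling, stood at 5.36, 30.7 and 6.70 TPM (-2.04). Both were highest with RARγi-1. PLAU, the urokinase protease that activates plasminogen at the cell surface, stood at 578 TPM in the Control library and at 678 and 139 TPM with RARγi-1 and RARγi-2, a difference of -2.28. ITGA5, the fibronectin receptor subunit, stood at 87.4, 135 and 33.7 TPM (-1.97). SEMA4B, a semaphorin, stood at 464, 477 and 138 TPM (-1.78). For PLAU and SEMA4B the RARγi-1 level lay near the Control level, and only the RARγi-2 library was low; for ITGA5 it lay above the Control. ENG, the TGFβ co-receptor endoglin (51.8, 39.2 and 8.68 TPM; -2.05), CX3CL1, a membrane-bound chemokine (65.2, 38.9 and 9 TPM; -1.995), and SDC1, the proteoglycan syndecan-1 (144, 102 and 28.1 TPM; -1.82), were highest in the Control library and lowest with RARγi-2. NRROS, CACNG7, ITPKB, LRFN1, PRSS22 and the homeobox gene NKX6-2 lay between -2.01 and -1.88.

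All 25 collagens, laminins and integrins above the floor had differences below 0, before and after rescaling. Of these, 8 were called lower (7 after rescaling) and 0 higher, and the median was -0.58. The called genes included COL13A1, a transmembrane collagen (13.9 TPM in the Control library and 5.67 and 1.59 TPM with RARγi-1 and RARγi-2), ITGB3 (4.29, 19.5 and 8.01 TPM), LAMA5 (44.7, 21.9 and 9.16 TPM), COL6A1 (34.2, 27.7 and 11.9 TPM) and ITGA2, a collagen receptor subunit (65.5, 113 and 50.3 TPM). The starting levels differed within the group: ITGA5, ITGA2 and ITGB3 were above the Control with RARγi-1, while COL13A1, LAMA5 and COL6A1 were below it. ITGB1, the common β subunit, differed by -0.41 (623 and 468 TPM), and COL5A1 by -0.14.

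Signalling lists around the cell surface had lower members too. Of 16 TGFβ and BMP response genes 4 were lower (3 after rescaling) and 0 higher, with a median of -0.39, among them LTBP2 (24.5 and 8.07 TPM) and LTBP1 (14.1 and 5.72 TPM), which store latent TGFβ in the matrix, and ID1, a BMP-induced inhibitor of differentiation factors (229 and 106 TPM). Of 20 MAPK feedback and output genes 3 were lower, namely SPRED3, EPHA2 (146 and 58.8 TPM) and SPRY4 (84.9 and 36.1 TPM), and the phosphatase gene DUSP8 was higher (5.87 and 13.0 TPM). Among 17 measured NF-κB chemokines and cytokines the directions were mixed. ICAM1, an adhesion receptor (140, 100.4 and 34.0 TPM; -1.54), CCL2 (112, 6.79 and 2.31 TPM; -1.24) and LIF (38.1, 139 and 64.9 TPM; -1.09) were lower (2 of these after rescaling), whereas CXCL8, the gene of interleukin-8, was at the floor with RARγi-1 and at 4.65 TPM with RARγi-2. YAP and TEAD targets had 2 of 18 lower (1 after rescaling), WWC1 and NT5E (211 and 104 TPM), and 0 higher. Of 16 measured epithelial and mesenchymal state genes 3 were lower (1 after rescaling), namely the gelatinase gene MMP2 (19 and 8.54 TPM), TWIST2 (5.57 and 2.13 TPM) and EPCAM, and 0 were higher.

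**Figure D3:**
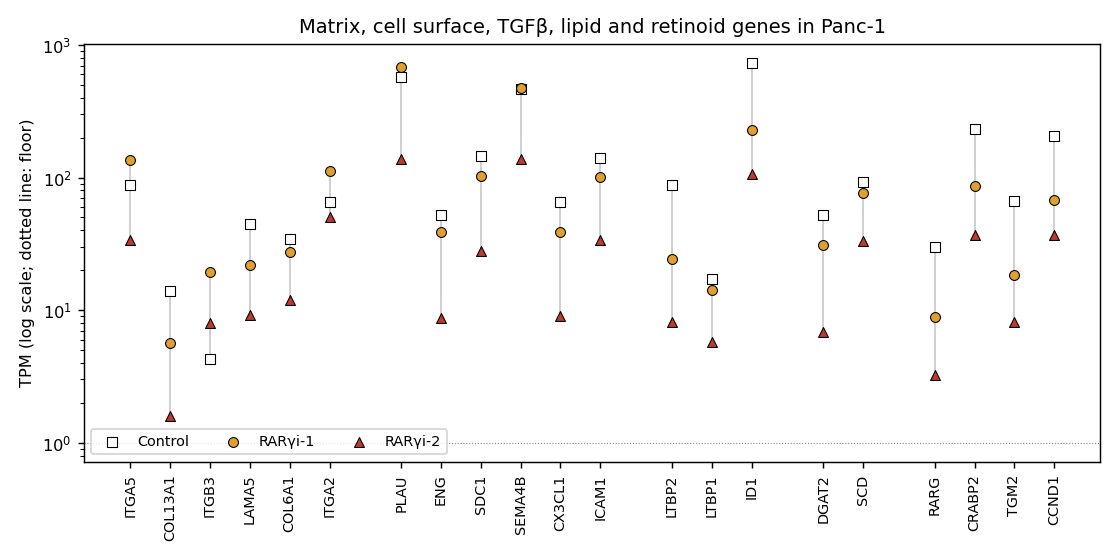
Levels of 21 genes in the 3 Panc-1 libraries, in TPM on a log axis, with 1 library per symbol; the dotted line is the floor of 1 TPM. The groups from left to right are matrix and integrin, surface and secreted, TGFβ, lipid, and retinoid and cyclin genes. RARγi-2 (triangles) lies under RARγi-1 (circles) in every gene shown and under the Control (squares) in every gene but ITGB3.

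In the retinoid lists the genes called were all lower with RARγi-2. GPRC5A, a retinoic acid-induced gene outside these lists, was higher (59.8 and 127 TPM with RARγi-1 and RARγi-2, a difference of 1.07). RARG, the gene of the receptor, stood at 30.1 TPM in the Control library and at 8.83 and 3.27 TPM with RARγi-1 and RARγi-2, a difference of -1.20. RARA (8.20 and 7.28 TPM) and RXRA (13.7 and 11.2 TPM) differed by -0.15 and -0.27, and RARB was at the floor with both inhibitors. RARG was the only gene called among the 10 measured retinoid receptors and coregulators (10%). Of the 15 measured retinoid metabolism and target genes 3 were lower (2 after rescaling) and 0 higher, with a median of -0.46. These 3 are 20% of the list, against 2.14% of all members called lower. They were CRABP2, which carries retinoic acid to the receptor (231, 86.4 and 37.2 TPM), TGM2, a transglutaminase induced by retinoic acid (66.2, 18.4 and 8.17 TPM), and CYP26C1, a retinoic acid hydroxylase near the floor. In PK-1, 5 of 12 genes of this list were lower and 1 higher, with a median of -0.53. RARG, CRABP2 and TGM2 were highest in the Control library and lowest with RARγi-2. Of the 12 esophagus-tissue-specific genes of the study 4 were above the floor, and CRABP2 was the only one called; KRT13 was at the floor with both inhibitors. FABP5, an alternative carrier of retinoic acid, differed by -0.11 (180 and 166 TPM).

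Among cell cycle genes the G2 and M phase list was lower by small amounts in nearly every member. Of 60 G2 and M phase genes 59 had differences below 0, both before and after rescaling, with a median of -0.55, but only PLK1, the mitotic kinase (169, 62.4 and 24.2 TPM), and HJURP, a centromere chaperone (122, 60.4 and 24.0 TPM), were called. Of 44 genes of origin licensing, replication and nucleotide synthesis 39 were below 0 before rescaling and 33 after it; the median was -0.35 and 0 were called. RRM2, a subunit of ribonucleotide reductase, stood at 350.3 TPM in the Control library and at 34.9 and 24.5 TPM with RARγi-1 and RARγi-2, and TYMS, thymidylate synthase, at 397, 68.0 and 46.6 TPM. Both were thus already far under the Control with RARγi-1. Of 24 measured G1-S regulators 17 were below 0 before rescaling and 15 after it, near the 65.3% of all members, with a median of -0.17. Only CCNA2 was called in it (-1.10); CCND1, the gene of cyclin D1, differed by -0.84 (67.3 and 37.2 TPM), CDK2 by -0.78 and CDKN1A, which encodes the CDK inhibitor p21, by -0.29 (249.9 and 204 TPM).

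In lipid genes the differences split by pathway. Of 19 fatty acid synthesis genes 2 were lower, DGAT2, which makes triglyceride (52.2, 30.9 and 6.87 TPM; -2.02), and SCD, the stearoyl-CoA desaturase (91.9, 77.1 and 33.4 TPM; -1.18), and the median was -0.43. The 25 measured cholesterol genes had a median of 0.10 with only TM7SF2 called lower. The 40 lysosomal genes had a median of -0.17. Hypoxia and glycolysis genes had 1 of 29 called, ANKRD37 (1.78 and 6.69 TPM). In housekeeping lists the differences were small, with 0 called in each. The 74 cytosolic ribosomal proteins had a median of 0.04 with 53 above 0 (67 after rescaling), and the 31 proteasome subunits a median of 0.11 with 26 above 0 (30 after rescaling). The 45 respiratory chain subunits had a median of -0.11 with 39 below 0 (28 after rescaling), and the 35 mitochondrial ribosomal proteins -0.17 with 28 below 0 (22 after rescaling). None of the p53 targets, BCL2 family genes, interferon and MHC class I genes, actin and SRF targets, homologous recombination genes, splicing factors, ribosome biogenesis genes or heme and iron genes was called; the largest difference in the last list was -0.87 for ALAS1.

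**Figure D4:**
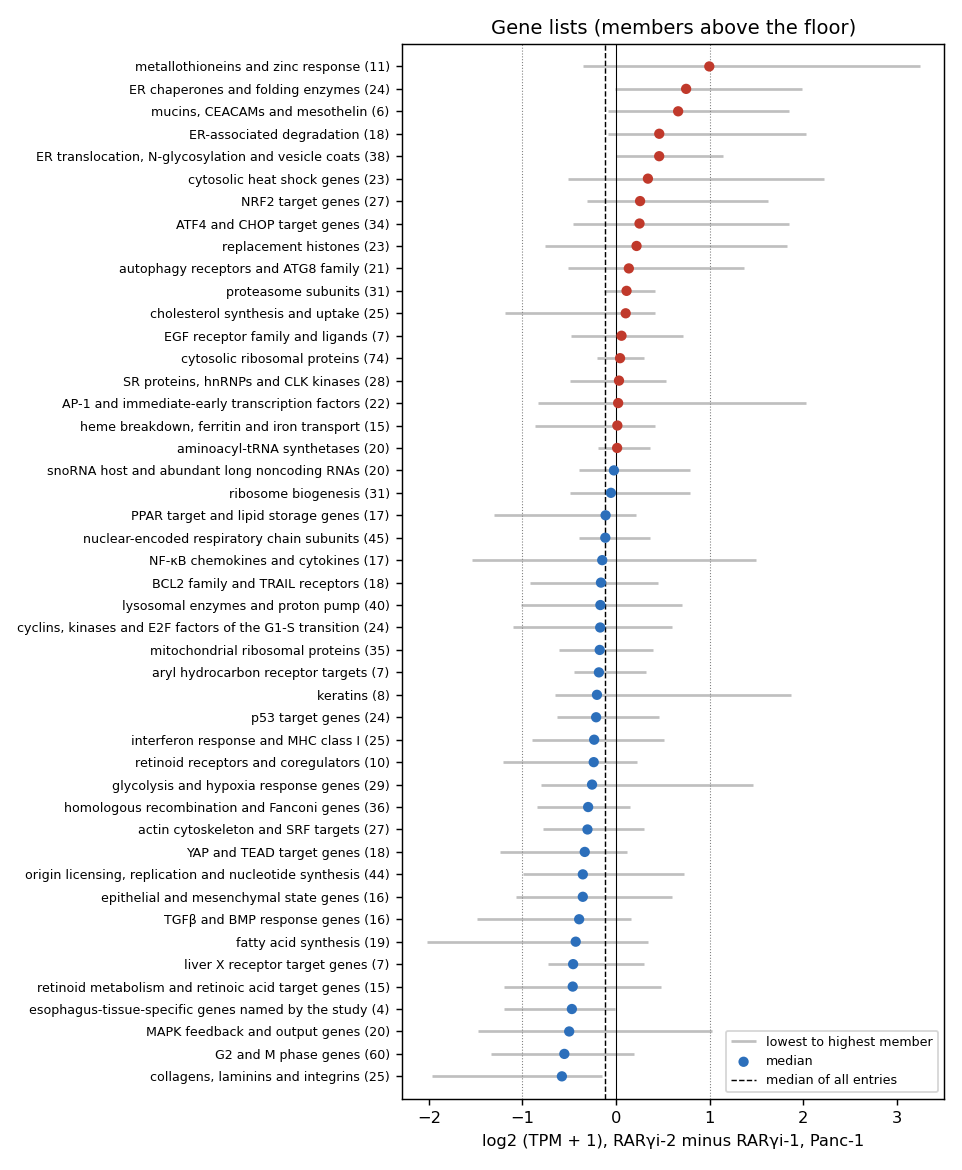
Differences in log2 (TPM + 1), RARγi-2 minus RARγi-1 in Panc-1, for 46 gene lists. The points are medians over the members above the floor, whose number stands in parentheses; the grey lines run from the lowest to the highest member, the dashed line marks the median of all entries (-0.12) and the dotted lines 2-fold. Metallothionein and ER lists lie at the top, and matrix genes and G2 and M phase genes at the bottom.

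Several of the largest values belonged to entries that share their reads with others. URGCP-MRPS24, a read-through entry at chr7:43866558-43906596, was at the floor in the Control and RARγi-1 libraries and at 119.6 TPM with RARγi-2, while MRPS24, which lies within it, went from 326 to 155 TPM. Their sum differed by only -0.25. BLOC1S1-RDH5 (1.08 and 10.6 TPM) overlaps BLOC1S1 (72.3 and 22.3 TPM), and their sum differed by -1.13. TRIM39-RPP21 was at the floor with RARγi-1 and at 31.2 TPM with RARγi-2, with RPP21 at 216 and 95.1 TPM. The division of reads between such entries is therefore uncertain. Of the lower entries, MIR6723, annotated as a microRNA, stood at 25351 TPM in the Control library and at 9737 and 1881 TPM with RARγi-1 and RARγi-2. All 8 measured MTRNR2L entries, nuclear copies of the mitochondrial 16S ribosomal RNA gene named here after their values were seen, were lower, by -1.87 to -1.03, with a sum of 3660, 7640 and 3428 TPM. As these copies resemble mitochondrial RNA, their source is uncertain.

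The same 2 inhibitors were compared in PK-1, in libraries that the Panc-1 values do not use. There 191 of 14020 entries (1.36%) were higher and 628 (4.48%) lower with RARγi-2. Of the 100 entries higher in Panc-1, 90 were above the floor in PK-1, with a median of 0.70; 81 of these were above 0 against 35.1% of all members, and 23 were past 2-fold in the same direction and 0 in the opposite one. Of the 295 lower entries 238 were above the floor in PK-1, with a median of -0.71; 212 were below 0 against 64.9% of all members, 64 were past 2-fold lower and 2 higher. Across the 8746 entries of at least 5 TPM in all 4 treated libraries the differences in the cell lines had a Pearson r of 0.58 and a Spearman rho of 0.56, a description across genes, which are not independent replicates. The PK-1 libraries carry the same label conflict and unstated doses.

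Single genes showed where the lines were alike and where not. In PK-1, HSPA6 stood at 8.44 and 100.2 TPM with RARγi-1 and RARγi-2 (3.42), KLF2 at 3.90 and 31.6 TPM (2.73), MT1F at 32.1 and 220 TPM (2.74), RHOB at 67.1 and 240 TPM (1.82), HERPUD1 at 331 and 1007 TPM (1.60) and ATF3 at 48.3 and 157 TPM (1.69). PLAU stood at 754 and 219 TPM (-1.78) and ENG at 18.0 and 5.55 TPM (-1.54). These 8 genes differed by over 2-fold, and the same way, in both lines. Of the 15 highest and 15 lowest named entries, 14 and 11 were above the floor in PK-1. Of these, 10 and 5 were past 2-fold the same way. KRT16 (0.19), ITGA5 (-0.72) and RGS2 (-0.75) stayed within 2-fold in PK-1, and PRSS22 had the opposite sign (0.22). The collagen, laminin and integrin list had a PK-1 median of -0.44, with 3 of 21 genes called lower and 4 above 0. DGAT2 (1.29 and 1 TPM), CX3CL1 (at the floor with both inhibitors), MT1E and MT1M (both at the floor) could not be compared. HSPA1A differed by 0.82 in PK-1 against 1.58 in Panc-1, and the heat shock list had a PK-1 median of 0.05 against 0.34. The cell cycle lists were further apart: the G2 and M phase genes had a PK-1 median of -1.48, with 55 of 60 lower, and the replication genes -0.97, with 20 of 44 lower. The YAP and TEAD targets had -0.94 with 9 of 18 lower in PK-1. These differences between the lines were not tested.

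**Figure D5:**
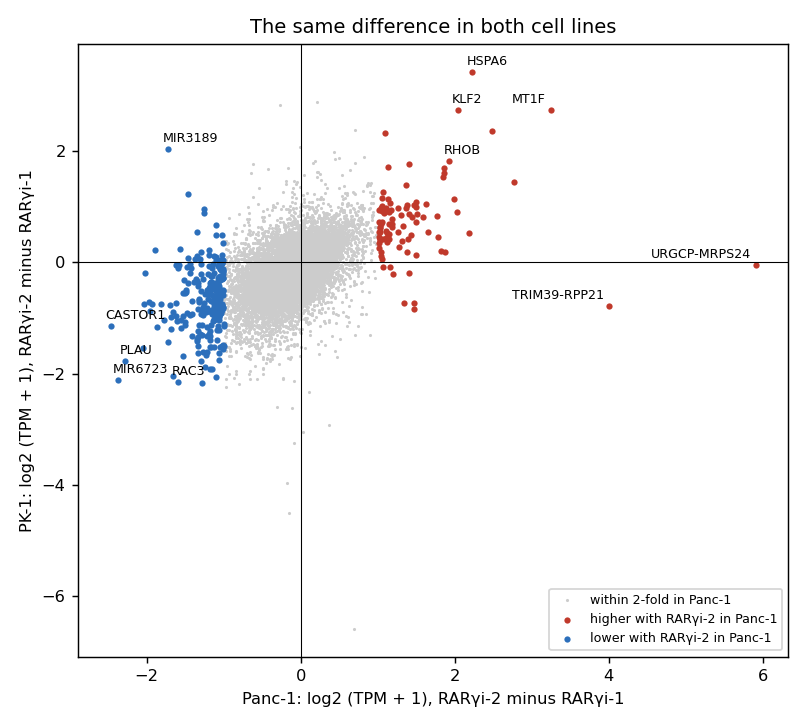
Difference in log2 (TPM + 1), RARγi-2 minus RARγi-1, in Panc-1 (horizontal) and PK-1 (vertical) for the 12524 members above the floor in PK-1. Red points are entries higher and blue points entries lower by over 2-fold in Panc-1; most red points lie above 0 on the vertical axis (81 of 90) and most blue points under it (212 of 238), while URGCP-MRPS24 and TRIM39-RPP21 lie far to the right and near or under 0.

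Markers of other cell types were at or near the floor in the treated libraries. The acinar and endothelial markers, 9 and 5 genes, were all at the floor in both treated libraries, as were 5 of 6 endocrine, 9 of 10 blood and 6 of 7 fibroblast markers. The exceptions were IAPP, HBA1 and COL1A1, at 4.65 TPM or less with either inhibitor. COL1A1 stood at 52.4 TPM in the Control library. KRT8, KRT18, KRT19 and VIM were abundant, KRT7 was at 2.40 and 2.67 TPM, EPCAM went from 19.4 to 9.18 TPM and CDH1 was at the floor. Base composition moved with the lower calls: among entries of at least 5 TPM, 18 of the fifth with the lowest GC content and 115 of the fifth with the highest were lower with RARγi-2 (0.858% and 5.48%). With the trend of the difference on GC content and transcript length removed, 96 entries were higher and 260 lower, of which 90 and 247 were called without this step.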

How the data were processed

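RNA of PK-1 and Panc-1 cells was sequenced from TruSeq stranded mRNA libraries, 1 per condition. The authors deposited log2 TPM values for each library, with a floor of 1 TPM (0 on the log2 scale). The submitters' processing notes name hg38 as the build; the aligner, counter and annotation are not given in the sources used here. Depth is unknown, so no interval or detection limit is given.

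The log2 values were put back to TPM, and differences were taken as log2 of (TPM + 1) with RARγi-2 over RARγi-1 and called past 2-fold. With 1 library per side no test was possible. The calculation was tested on simulated data. Named genes were the 15 entries with the largest difference each way among those past 2-fold and with at least 10 TPM, and the 4 members of each list with the largest absolute difference. A further 22 genes were taken from those that the study or an earlier report on the same series names. The members, lists and rules were chosen with earlier results of these data known. MTRNR2L entries, partners of read-through entries, SDC1, SEMA4B and list members beyond the 4 were named after their values were seen. Some genes that this rule names are not reported here. In all, 27 symbols read as calendar dates. Of the members' Entrez IDs, 99.6% were in RefSeq (GRCh38.p14), which gave promoters; 77.5% of the members had one. Gene coordinates are from RefSeq as well. GENCODE 29 gave only the GC content and length of transcripts. Python 3.11.15, pandas 2.3.3 and matplotlib 3.10.9 were used.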

Additional observations from a re-analysis of the deposited data

Results flagged for a closer look

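TRIM39-RPP21, a read-through entry that overlaps TRIM39 and RPP21, differed by 4.01 in Panc-1 (at the floor with RARγi-1 and at 31.2 TPM with RARγi-2) and by -0.79 in PK-1 (18.3 and 10.2 TPM). It stands out because the same contrast goes opposite ways in the 2 cell lines; with 1 library per condition the difference between the lines was not tested. The sum of TRIM39-RPP21 and RPP21 differed by -0.78 in Panc-1 and by -0.51 in PK-1, the same direction in both.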

How the results depend on the processing

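No difference past 2-fold changed its direction among the named genes under the alternatives run, but most alternatives could not have changed it. Another pseudocount or a 5 TPM filter cannot turn the sign of a gene, and rescaling shifts a value by less than 0.1. For these settings the unchanged direction is therefore no check of the calls. Signs changed only for values near 0: rescaling turned the ribosome biogenesis list (-0.05 to 0.04), the long noncoding RNA list (-0.02 to 0.07, and to 0.00461 with at least 5 TPM) and 1 named gene, and removing the GC and length trend turned the aminoacyl-tRNA synthetases (0.01 to -0.01). The counts of higher and lower entries, 100 and 295, became 165 and 594 without a pseudocount, 46 and 92 with a pseudocount of 5 TPM, 22 and 31 past 3-fold, and 425 and 1480 past 1.5-fold. With at least 5 TPM in 1 library they were 85 and 254, and with 1 entry per symbol they stayed at 100 and 295. With the GC and length trend removed, an alternative chosen after seeing the data, they were 96 and 260. Of the 46 list medians, 7 moved by over 0.1 without a pseudocount (most in the matrix list, -0.58 to -0.83), 10 with a pseudocount of 5 TPM (most in the metallothionein list, 0.998 to 0.774), 4 with at least 5 TPM (the NF-κB list to -0.57 and the mucin list to 1.08, on fewer genes) and 0 under rescaling or GC and length correction. Rescaling moved the medians by up to 0.0948, which takes the respiratory chain list from -0.11 to -0.02. Of the 217 named genes, 20 moved by more than the robust SD of the difference (0.31) without a pseudocount and 43 with a pseudocount of 5 TPM. No paired analysis was possible because each condition has 1 library, and no library could be left out. The yardstick of 0.31 comes from the compared libraries themselves. Among entries of at least 5 TPM the robust SD was 0.42 in the fifth with the lowest expression and 0.26 in the fifth with the highest, so that differences of low genes are the least certain.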

Other observations

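Some short noncoding RNA entries differed by over 2-fold, although the libraries were made from mRNA. Of 183 snoRNA entries 9 were higher and 6 lower, and of 123 microRNA entries 4 were higher and 6 lower. MIR614, whose annotated position (chr12:12915829-12915918) lies within GPRC5A, a retinoic acid-induced receptor gene, stood at 17.0 and 45.7 TPM with RARγi-1 and RARγi-2 in Panc-1, a difference of 1.38, and GPRC5A itself at 59.8 and 127 TPM, a difference of 1.07. The Control library had 57.0 and 116 TPM for them. MIR3189, at chr19:18386562-18386634 within GDF15, a stress-induced cytokine gene, went from 10.4 TPM to 2.45 TPM in Panc-1 and from 1 TPM to 7.19 TPM in PK-1, while GDF15 was listed at the floor in these libraries. Reads of a host transcript and of an entry inside it cannot be told apart here. All of these names were chosen with the values in view.

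A set of 5 further promoter elements were searched on both strands in the same windows. The E2F element (tttcccgc or tttggcgc) was in 20 of 39 promoters of replication genes and 5 of 21 of G1-S regulators. It was also in 5 of 32 of homologous recombination and Fanconi genes, against 2.75% of all genes with a promoter. Among measured genes 4.56% had it, among higher genes 1 of 64 and among lower genes 5 of 201 (2.49%). The CARE element of ATF4 (ttgcatca) was in 5 of 28 promoters of ATF4 and CHOP targets and in 6 of 16 of aminoacyl-tRNA synthetases, against 1.08%. The antioxidant element (tgacnnngc) was in 6 of 21 promoters of NRF2 targets, in 19 of 64 higher and 49 of 201 lower genes (29.7% and 24.4%), in 19.3% of measured genes and in 16.1% of all genes with a promoter. The sterol element was in 1 of 19 cholesterol gene promoters, against 0.0586%, and the xenobiotic element (ttgcgtg) in none of 8 promoters of aryl hydrocarbon receptor targets, against 1.42%. The median differences of these lists were -0.35 for replication genes, -0.17 for G1-S regulators, -0.30 for homologous recombination and Fanconi genes, 0.25 for ATF4 and CHOP targets and 0.01 for aminoacyl-tRNA synthetases.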
